A study of Mus musculus with 2 samples.

Results

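The miR-10, miR-99, miR-100 and miR-125 families were followed in sncRNA-Seq of testes from C57BL/6 mice at postnatal day 60. They were represented by 8 of the 1905 mature miRNAs counted, selected by name: mmu-miR-10a-5p, mmu-miR-10b-5p, mmu-miR-10b-3p, mmu-miR-99a-5p, mmu-miR-99b-5p, mmu-miR-100-5p, mmu-miR-125a-5p and mmu-miR-125b-5p. All 8 had at least 10 reads in the 2 libraries together and were tested. The control library came from mice that drank water with the vehicles, DMSO and ethanol. The other library came from mice that drank a mixture of EDCs (endocrine-disrupting chemicals), made of the phthalates DEHP, DBP and BBP at 0.3 mg per kg and day each and the alkylphenols NP and OP at 0.05 mg per kg and day each. Both treatments began in the pregnant mothers just after conception and went on in the male offspring to the day of collection. Each library was made from a pool of testes (n = 3, equal amounts of RNA), so each group has 1 library and no replicate check. The tests therefore compare these libraries and not the conditions, and counting error of reads is all that the intervals hold.

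These miRNAs belong to an old set of related genes. The miR-10 genes lie inside the Hox clusters, the gene arrays that pattern the body axis, and repress several Hox mRNAs. miR-99 and miR-100 are known as repressors of mTOR, a kinase that drives cell growth. miR-125 is the mammalian relative of lin-4 of Caenorhabditis elegans, which times larval development, and is known to repress p53 and Lin28 in other tissues. The miR-99, miR-100 and miR-125 genes sit in clusters together with a let-7 gene, another timer of development. A miRNA recognises its targets mainly through its seed, bases 2 to 8 counted from the 5′ end.

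The mature sequences show why the 8 miRNAs are treated as 3 seed families, with bases 2 to 8 in capitals. They are the RefSeq sequences of GRCm38.p6, which held all 8 of them and 1621 of the 1905 mature miRNAs.
miR-10a-5p: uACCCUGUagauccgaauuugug
miR-10b-5p: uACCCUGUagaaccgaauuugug
miR-99a-5p: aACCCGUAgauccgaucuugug
miR-99b-5p: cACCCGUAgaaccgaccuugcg
miR-100-5p: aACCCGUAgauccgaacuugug
miR-125a-5p: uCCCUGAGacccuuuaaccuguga
miR-125b-5p: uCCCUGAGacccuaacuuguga
miR-351-5p: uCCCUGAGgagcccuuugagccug
miR-10b-3p: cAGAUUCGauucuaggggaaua
The miR-10 seed was shared by 2 mature miRNAs of the count table, the miR-99/100 seed by 3 and the miR-125 seed by 5. The 3 further miRNAs with the miR-125 seed were miR-351-5p, shown above, and miR-6367 and miR-6394, which had 0 reads in both libraries. The seeds of miR-10 and miR-99/100 differ, but the sequences behind them are alike. miR-10a-5p and miR-100-5p share an unbroken run of 11 bases, guagauccgaa, and are 3 edits apart over their full length. The miR-125 sequences are farther off, at least 6 edits from either other family.

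Some relatives within a family share most of their 5′ bases. miR-10a-5p and miR-10b-5p differ at 1 base, U12A, with positions counted from the 5′ end and miR-10a given first. miR-99a-5p and miR-100-5p differ at 1 base, U16A, and their first 15 bases are the same. miR-99b-5p differs from miR-99a-5p at 4 bases (A1C, U11A, U16C and U21C, miR-99a first). miR-125a-5p and miR-125b-5p have the same first 13 bases and are 3 edits apart. Reads down to 12 bases were kept and up to 3 mismatches were allowed in the alignment, so reads cut short before the first difference may be counted at either relative. The split of reads between miR-99a and miR-100 and between miR-125a and miR-125b is uncertain to that extent.

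The genes of these families lie on the plus strand of 5 chromosomes of GRCm38, the assembly called mm10. Mir10a lies on chromosome 11 from 96317165 to 96317274, within the RefSeq span of Hoxb3 and 992 bases before Hoxb4, and overlaps no other gene of GENCODE M21. Mir10b lies on chromosome 2 from 74726070 to 74726137, in introns of Hoxd3 and Hoxd4 on the same strand. Both of its arms were measured, and its hairpin is shown here with the 5p and the 3p arm in capitals.
Mir10b hairpin: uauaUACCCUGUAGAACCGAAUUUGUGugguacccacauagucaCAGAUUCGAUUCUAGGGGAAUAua
The other genes form 3 clusters. On chromosome 16, Mir99a (77598936 to 77599000) is followed by let-7c-1 after 656 bases and by Mir125b-2 after 47272 bases, all in introns of the noncoding Mir99ahg. On chromosome 9, Mir100 (41531425 to 41531504) is followed by let-7a-2 after 5211 bases and by Mir125b-1 after 50421 bases, all in introns of the noncoding 3110039I08Rik. On chromosome 17, Mir99b (17830188 to 17830257) is followed by let-7e after 94 bases and by Mir125a after 554 bases, within the span of Spaca6, where Mir125a overlaps an annotated exon and the others an intron. miR-125b-5p thus comes from 2 hairpins. The files list 0 reads as aligned to several places, so a read of miR-125b-5p may have been counted at both, and its level may be too high and its interval too narrow.

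The libraries held 550261 mature miRNA reads in the control library against 501539 in that of exposed mice. Both carried the markers of testis: 9 germ cell miRNAs took 24.5% of the reads in control and 24.2% in exposed mice, and miR-202 of the somatic gonad cells was present in both arms. Liver miR-122-5p had 0 and 1 reads. Of the 3 striated muscle miRNAs, miR-1a-3p had 712 and 842 reads (log2 ratio 0.43, 95% interval 0.28 to 0.57), miR-133a-3p had 103 and 56 (−0.69, −1.19 to −0.21), and miR-206-3p had 0 in both libraries. In whole testis, fewer cells of a type and less miRNA per cell cannot be told apart.

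Summed, the 8 miRNAs made up 8.26% of all reads in control mice (45429 reads) and 7.99% in exposed mice (40060 reads). Their levels spanned a wide range, and since mature miRNAs are of nearly equal length, reads are taken as levels without a correction for length. Differences between miRNAs in how well they enter a library were not measured here. miR-99a-5p was the most abundant, with 32412 RPM (reads scaled to the library total) in control and 31489 in exposed mice, the miRNA of rank 4 and rank 5 among all those counted. miR-10b-5p followed with 14255 and 15981 RPM, and miR-125b-5p with 13863 and 10877. In control mice these last did not differ beyond counting error (miR-10b-5p over miR-125b-5p 1.03-fold, 95% interval 0.996 to 1.06), whereas in exposed mice miR-10b-5p was 2 places above miR-125b-5p. miR-100-5p had 11055 and 10996 RPM, which in exposed mice was level with miR-125b-5p (1.01-fold, 0.974 to 1.05). Then came miR-99b-5p with 5145 and 4379, miR-125a-5p with 3489 and 3597, and miR-10a-5p with 2257 and 2444. miR-10b-3p was last at 83.6 and 112 RPM, and it was the one with a wide error. All other neighbours in this order differed beyond counting error in both libraries.

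**Figure D1:**
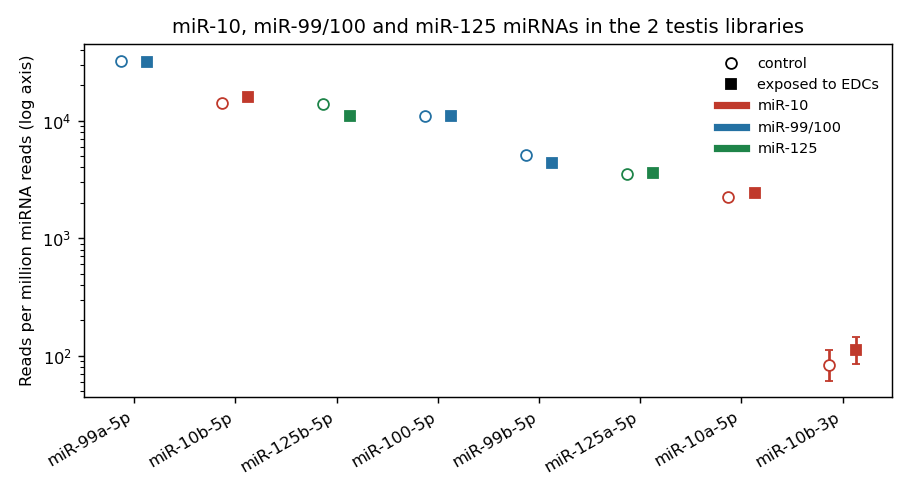
RPM, reads scaled to the total of mature miRNA reads (vertical log axis), of the 8 miRNAs in the control library (open circles) and the library of exposed mice (filled squares), coloured by seed family, with exact 95% intervals that are mostly smaller than the symbols. miR-99a-5p is the highest in both libraries, at 32412 and 31489, and miR-10b-3p the lowest, at 83.6 and 112.

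The question for each miRNA was whether its level differed between the library of exposed mice and the control library. 2 of the 8 rose (miR-10a-5p and miR-10b-5p), 2 fell (miR-99b-5p and miR-125b-5p), and 4 did not pass the test. "Rose" and "fell" are used for an adjusted p under 0.05 when the reads were compared by an exact binomial test (2-sided), with Benjamini-Hochberg adjustment over all 484 tested miRNAs. Over all 484, 8.26% rose and 9.3% fell. That background rests mostly on miRNAs with few reads, in which small changes cannot be seen. Among the 117 tested miRNAs with at least 1000 reads, a set chosen after the data were seen and holding 7 of the 8, 28.2% rose and 25.6% fell. The counts for these families, 2 and 2, are close to those of other deeply read miRNAs. None of the 8 reached a log2 ratio of 0.5 in size together with the adjusted p, a size minimum passed by 0.62% of all tested miRNAs upwards and by 2.27% downwards. The median log2 ratio of the 8 was 0.07, against −0.04 for all 484.

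miR-10b-5p, the main form of its family, had 7844 reads in the control library against 8015 in that of exposed mice. Since the library of exposed mice was the smaller one, this was a 1.16-fold increase after scaling (log2 ratio 0.22, 95% interval 0.17 to 0.26, exact binomial adjusted p = 5.48e-20). miR-10a-5p had 1242 reads in the control library against 1226 in that of exposed mice, a 1.12-fold increase (log2 ratio 0.17, 0.05 to 0.28, adjusted p = 0.0246). Both thus rose by a similar step, although their genes lie on different chromosomes. miR-10b-3p, from the other arm of the Mir10b hairpin shown above, had 46 and 56 reads (log2 ratio 0.47, −0.12 to 1.07, adjusted p = 0.303), so its reads were too few to tell a change from none. The summed reads of the miR-10 seed family had a log2 ratio of 0.21 (0.17 to 0.25), and miR-10b-5p made up 86.3% of the family in control (85.6% to 87.0%) and 86.7% in exposed mice (86.0% to 87.4%). With scaling by total reads, miR-10a-5p lost its call (log2 ratio 0.12, adjusted p = 0.16), while miR-10b-5p kept it.

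The miR-99/100 family, the most abundant of the 3, hardly moved as a whole. Its summed reads were 26749 in control and 23504 in exposed mice, a log2 ratio of 0.00 (−0.03 to 0.03). miR-99a-5p had 17835 and 15793 reads (log2 ratio 0.01, −0.02 to 0.04, adjusted p = 0.758). miR-100-5p had 6083 and 5515 reads (log2 ratio 0.05, −0.01 to 0.10, adjusted p = 0.272). The upper bounds of their intervals are 1.03-fold for miR-99a-5p and 1.07-fold for miR-100-5p. miR-99b-5p alone of the 3 passed the test: it went from 2831 to 2196 reads, a 0.88-fold level (log2 ratio −0.18, −0.26 to −0.10, adjusted p = 0.000121). Its share of the family reads fell from 10.6% (10.2% to 11.0%) to 9.34% (8.97% to 9.72%). The near-zero value of miR-99a-5p depends on the scaling, since scaling by total reads moved it to −0.04 with an adjusted p of 0.0399.

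The miR-125 family held the largest fall among the 8. miR-125b-5p went from 7628 reads in control to 5455 in exposed mice, a 0.81-fold level (log2 ratio −0.30, −0.35 to −0.25, adjusted p = 7.26e-30). miR-125a-5p, its relative with the same seed, had 1920 and 1804 reads (log2 ratio 0.10, 0.00 to 0.19, adjusted p = 0.164). The family total followed miR-125b-5p and stood at −0.21 (−0.25 to −0.16), while the share of miR-125a-5p within the family went from 20.1% (19.3% to 20.9%) to 24.9% (23.9% to 25.9%). miR-351-5p, a rodent miRNA with the same seed whose gene lies on the X chromosome, had 393 and 396 reads (log2 ratio 0.20, −0.01 to 0.40, adjusted p = 0.2). Only miR-125b-5p of the 3 with reads passed the test. All 4 calls named here were lost with a dispersion estimated from the 2 libraries treated as 1 group: edgeR's exact test then gave an adjusted p of 1 for each of the 8, with 0 of the 8 and 5 of the 484 at an unadjusted p under 0.05. Over all 484, 0 calls were left as well. With the libraries as 1 group, any difference between them enters the dispersion itself.

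**Figure D2:**
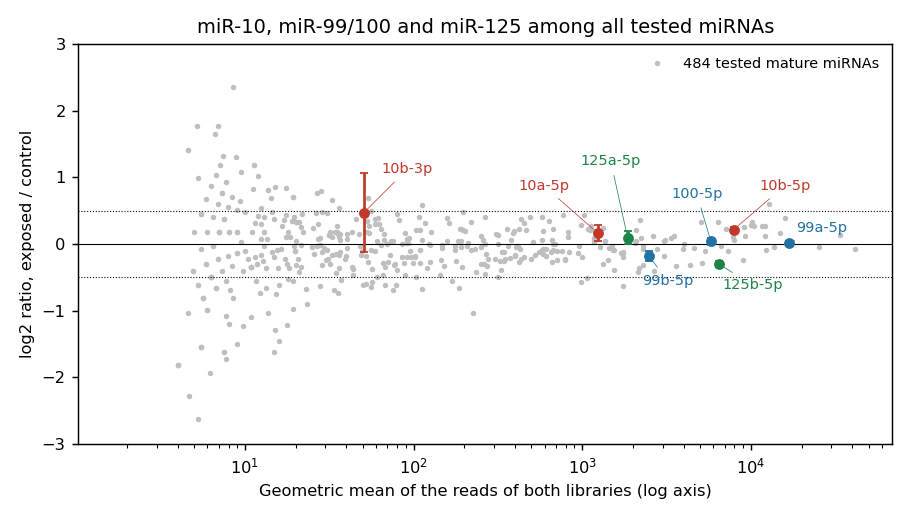
log2 ratio of exposed to control mice (vertical axis) against the geometric mean of the reads of both libraries (horizontal log axis) for the 484 tested mature miRNAs (grey) and the 8 miRNAs of these families (coloured by seed family, with exact 95% intervals). Dotted lines mark a log2 ratio of 0.5 in size. The 7 5p forms sit in the deeply read part of the plot, between −0.30 and 0.22.

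A comparison of miRNAs with each other does not depend on the scaling of the libraries, so pairs were set against each other with Fisher's exact test on their reads, adjusted over all 116886 pairs of tested miRNAs. Of those, 6.47% differed. Of the 28 pairs among the 8 miRNAs 12 did, or 12 of the 21 pairs of 5p forms (57.1%), against 50.2% of the 6786 pairs of miRNAs with at least 1000 reads. At this depth a difference between 2 miRNAs was thus about as common in these families as elsewhere. Within families, miR-10a-5p and miR-10b-5p did not separate (difference of log2 ratios −0.05, 95% interval −0.17 to 0.07, adjusted p = 0.825), nor did miR-99a-5p and miR-100-5p (−0.03, −0.10 to 0.03, adjusted p = 0.692). miR-99a-5p and miR-99b-5p did, by 0.19 (0.10 to 0.28, adjusted p = 0.000478). So did miR-99b-5p and miR-100-5p, by −0.23 (−0.32 to −0.13, adjusted p = 0.000175). Among the 8 miRNAs, the widest gap in log2 ratio between relatives was that of miR-125a-5p over miR-125b-5p, at 0.39 (0.29 to 0.50, adjusted p = 3.26e-11 from Fisher's exact test). A gap at least as wide was seen in 22% of the 6786 pairs of deeply read miRNAs. Counting at 2 hairpins could raise the reads of miR-125b-5p in both libraries, and with its reads divided by 2 the pairs that differed still numbered 12. For the summed reads of the families, the log2 ratio of miR-10 was above that of miR-125 by 0.42 (0.36 to 0.48). It was above that of miR-99/100 by 0.21 (0.16 to 0.26).

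**Figure D3:**
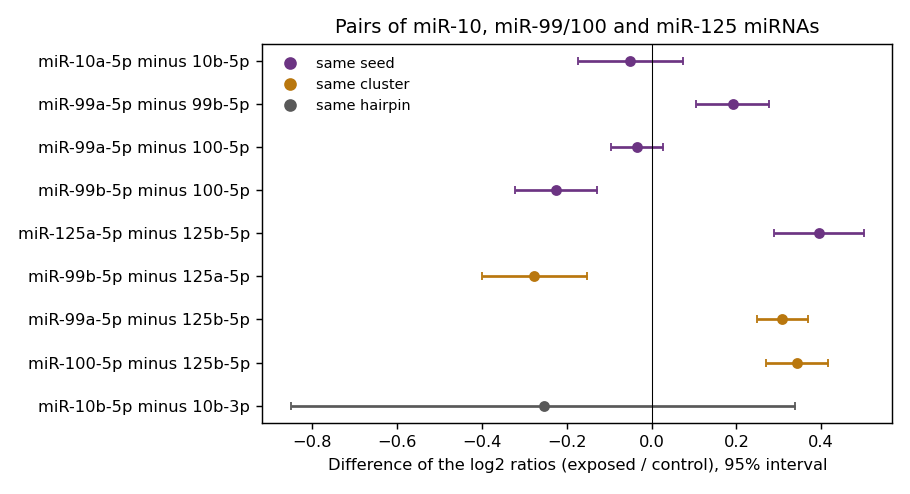
Difference of the log2 ratios of 9 pairs of miRNAs (horizontal axis, first minus second, with conditional exact 95% intervals), coloured by whether the miRNAs share a seed, a cluster or a hairpin. 6 of the 9 intervals exclude 0, and the pair of miR-125a-5p and miR-125b-5p is the farthest from it at 0.39.

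miRNAs of a cluster are made from a common transcript, so the neighbours were compared as well. For scale, 50.2% of the pairs of miRNAs with at least 1000 reads differed, and the clusters on chromosomes 16 and 9 share the value of miR-125b-5p. On chromosome 17, where each mature miRNA has a single hairpin, miR-99b-5p fell while let-7e-5p (587 and 588 reads, log2 ratio 0.19, 0.02 to 0.36, adjusted p = 0.113) and miR-125a-5p did not pass the test. The gap in log2 ratio of miR-99b-5p to miR-125a-5p was −0.28 (−0.40 to −0.15, adjusted p = 0.000381 from Fisher's exact test). That size was reached by 38.9% of the deeply read pairs. The gap of miR-99b-5p to let-7e-5p was −0.37 (−0.56 to −0.18, adjusted p = 0.0026 from the same test). This pair was added after the values were seen, as were all pairs with let-7 and with miR-351-5p. let-7e-5p and miR-125a-5p did not separate (0.09, −0.10 to 0.28, adjusted p = 0.762).

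The clusters on chromosomes 16 and 9 both hold a copy of miR-125b, and its mature form was compared with the neighbours in each. The log2 ratio of miR-99a-5p exceeded that of miR-125b-5p by 0.31 (0.25 to 0.37, adjusted p = 2.55e-22 from Fisher's exact test). The log2 ratio of miR-100-5p exceeded that of miR-125b-5p by 0.34 (0.27 to 0.42, adjusted p = 5.76e-18 from the same test). Of the deeply read pairs, 33.7% and 28.5% were at least as far apart. let-7c-5p, with 9471 and 9063 reads, rose after scaling by a log2 ratio of 0.12 (0.08 to 0.16), and let-7a-5p had 8044 and 7607 reads, a log2 ratio of 0.11 (0.06 to 0.15), which also passed the test. Both let-7 miRNAs are made from further genes outside these clusters, so their reads cannot be assigned to a cluster. The log2 ratio of miR-351-5p exceeded that of miR-125b-5p by 0.49 (0.28 to 0.71, adjusted p = 0.000135 from Fisher's exact test). It did not separate from that of miR-125a-5p (0.10, −0.13 to 0.33, adjusted p = 0.796).

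**Figure D4:**
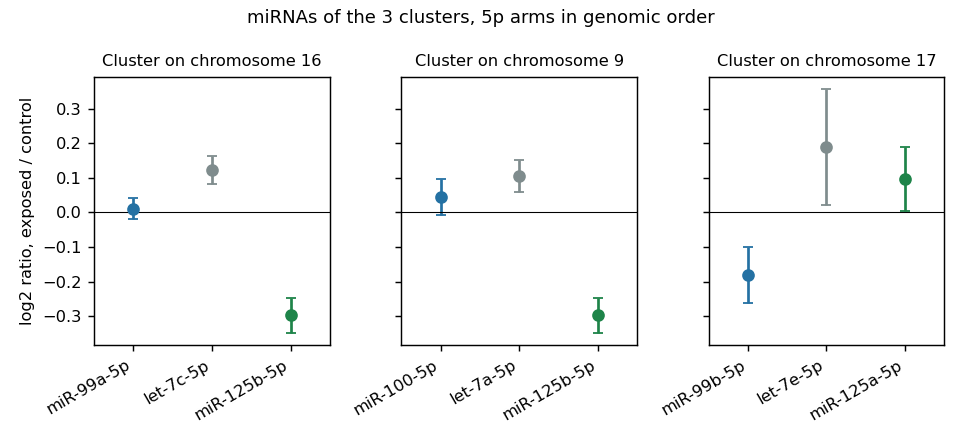
log2 ratio of exposed to control mice (vertical axis, exact 95% intervals) for the 5p miRNAs of the 3 clusters in genomic order, with let-7 in grey. miR-125b-5p, at −0.30 in both panels that show it, is the same value drawn in each, because its reads cannot be split between its 2 genes, and miR-99b-5p, at −0.18, is the one below 0 on chromosome 17.

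The other arms of the hairpins show how strongly the 5p arm dominated. miR-99a-3p had 4 and 3 reads and miR-100-3p 3 and 1, so that the 5p arm took 99.9% or more of the reads of these hairpins in both libraries. For Mir99b it took 96.7% in control (95.9% to 97.3%) and 96.7% in exposed mice (95.9% to 97.4%). miR-99b-3p had 98 and 75 reads, a log2 ratio of −0.20 (−0.65 to 0.25, adjusted p = 0.683) beside −0.18 for miR-99b-5p. The 3p arms of miR-125b are different for each gene and so show each hairpin alone. miR-125b-1-3p of chromosome 9 had 55 and 54 reads (log2 ratio 0.16, −0.41 to 0.73), and miR-125b-2-3p of chromosome 16 had 96 and 85 (0.01, −0.43 to 0.45). Each interval by itself includes the −0.30 of miR-125b-5p, a value pooled over both genes. A fall of that size in either hairpin alone could thus not be told from none. The 3p reads of both genes summed were not tested. The ratio of 5p to 3p reads differed between the libraries in 9.09% of 165 hairpins tested and in 0 of the 6 hairpins of these families that had enough reads (Fisher's exact test, lowest p unadjusted 0.118 and adjusted 0.454). For both hairpins of miR-125b the 5p reads were the same pooled reads of both genes, and the lowest p came from Mir125b-1. Each of these tests set the pooled 5p reads against the 3p arm of a single gene. They therefore do not decide whether the arm use of miR-125b differed. Of 7 other arms listed, 5 were tested and none rose or fell, against 8.26% and 9.3% of all tested miRNAs. With so few arms and reads, the absence of calls says little.

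Other miRNAs of the Hox loci were scarce in testis. miR-196a-5p had 55 reads in the control library against 43 in that of exposed mice (log2 ratio −0.17, −0.78 to 0.43) and miR-615-3p had 43 and 43 (0.19, −0.46 to 0.83). The remaining 5 of the 7 listed had at most 7 reads in either library and were not tested, with miR-196b-5p at 1 and 7. A miRNA with 0 reads may still have a share of up to 0.000545% in control and 0.000598% in exposed mice (3 reads of the total). miR-10b-5p thus outnumbered the 7 listed miRNAs together, which had 100 and 97 reads, in both libraries. The list leaves out miR-10a, whose gene also lies in a Hox cluster. In this list 0 of 2 tested miRNAs rose or fell, against 8.26% and 9.3% of all tested miRNAs, which at these few reads says little.

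The miRNAs nearest in level over the 2 libraries, by the distance of their log2 normalised reads, were let-7a-5p for miR-10b-5p (distance 0.08), let-7g-5p for miR-99a-5p (0.27) and miR-743b-3p for miR-125b-5p (0.20). The next ones were miR-21a-5p (0.11), miR-148a-3p (0.29) and miR-30c-5p (0.29). With 2 libraries this likeness is mostly one of abundance.

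Markers of other cells of the testis were read beside these values. The 5 stromal miRNAs (miR-199 and miR-214) had a summed share of 0.595% in control and 0.566% in exposed mice, and none of them rose or fell. The 4 smooth muscle miRNAs (miR-143 and miR-145) had 6.50% and 6.83%, with 1 of 4 higher, and the 2 of the endothelium (miR-126a) 0.682% and 0.588%, with 1 of 2 lower. The endothelial miR-126a-3p had a log2 ratio of −0.18 (−0.25 to −0.11), and miR-126a-5p of the same hairpin one of 0.06 (−0.20 to 0.31). miR-202-5p of somatic gonad cells had one of 0.21 (0.12 to 0.30), and miR-202-3p of the same hairpin one of 0.00 (−0.23 to 0.23). The 2 miR-202 forms had a summed share of 0.437% in control and 0.479% in exposed mice, with 1 of 2 higher. Of the 9 germ cell miRNAs 3 rose and 5 fell, and only miR-34b-5p, which rose, also passed the size minimum. For scale, 8.26% of all 484 tested miRNAs rose and 9.3% fell. Among those with at least 1000 reads, 28.2% rose and 25.6% fell. None of these stromal, smooth muscle, endothelial, somatic gonad or germ cell markers was at 0. Their part in the changes of the miR-10, miR-99 and miR-125 families was not tested.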

How the data were processed

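Each of the 2 libraries was a pool of testis RNA read on a MiSeq (65 nucleotides, single-end). According to the methods and the processing notes, the authors trimmed adapters with cutadapt, removed reads under 12 nucleotides, aligned the rest to mm10 with bowtie (up to 3 mismatches, all best alignments) and counted them with HTSeq on miRBase v21. The sources used here name no versions of these tools. The deposited values are whole counts of reads per mature miRNA with no normalisation. A line of ambiguous reads that names no miRNA (0.528% of the reads in control and 0.515% in exposed mice) was left out.

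Size factors (median of ratios, 1.07 for control and 0.937 for exposed mice) scaled the counts. log2 ratios carry exact 95% Clopper-Pearson intervals. The exact binomial test was run on 484 mature miRNAs whose reads over both libraries came to 10 or more, and Fisher's exact test on all pairs of them and on the arms of 165 hairpins, each with Benjamini-Hochberg adjustment over all features of that kind. No molecular identifiers are named, so PCR copies may make intervals too narrow. Alternatives were other scalings, minimums of reads and size minimums, a pseudocount of 0.5, miR-125b-5p reads divided by 2, a chi-square test for pairs and edgeR's exact test with an estimated dispersion. The methods were tested on simulated counts that held counting error only, so variation between pools was not covered. The miRNAs, the lists and the rules for naming (the 8 miRNAs, the other arms, let-7 of the same clusters, other Hox miRNAs, equal seeds and nearest levels, and marker miRNAs of cell types) were chosen with earlier results of these data known. Gene positions and sequences are from RefSeq GRCm38.p6 and host genes from GENCODE M21. Versions were edgeR 4.0.16 under R 4.3.3, and scipy 1.17.1, pandas 2.3.3 and numpy 2.4.6 under Python 3.11.15.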

Additional observations from a re-analysis of the deposited data

How the results depend on the processing

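Other scalings shifted every log2 ratio by −0.05 (total reads), 0.03 (TMM) or −0.03 (total reads without the 10 most read miRNAs). The miRNAs that rose then numbered 1, 4 and 1 in place of 2, and 0 rose and 0 fell with edgeR's exact test on an estimated dispersion. The 4 with TMM included miR-100-5p (0.07) and miR-125a-5p (0.12). Scaling by total reads put the miR-10 family at 0.16, miR-99/100 at −0.0528, miR-125 at −0.26 and miR-99a-5p at −0.0417, the reverse of its sign. The miR-99/100 family was at 0.0283 with TMM and at −0.0288 without the 10 most read miRNAs. With the reads of miR-125b-5p divided by 2 the miR-125 family was at −0.15, as that miRNA then weighs less in the sum. A size minimum of 0.25 let 1 miRNA pass as lower, miR-125b-5p. The number of pairs that differed, 12, stayed within 1.5 times under every alternative run for it. That of arm ratios stayed at 0 with at least 50 reads of each arm, which left 4 hairpins of these families. Apart from edgeR's exact test, these alternatives held counting error only, and an estimated dispersion was not run for pairs or arms. No paired analysis was possible because each group has 1 library. The depth limits miR-10b-3p and the other 3p arms most.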
